A study of Mus musculus with 85 samples.

Results

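Of the 7 hemogenic endothelial cells (HEC) sorted from mouse embryos, the 3 with the highest score over 6 genes of venous and lymphatic endothelium (cells 6, 3 and 7 in order of their score, called high-score HEC here) were set against the other 4 (cells 1, 2, 4 and 5, low-score HEC) across all genes. The score was the mean log2 expression value of Nr2f2, Nrp2, Flt4, Aplnr, Ephb4 and Lyve1 in each cell, each gene read on its brightest probe set, and the 3 highest of the 7 were taken. The series holds 84 different cells, each amplified and hybridised to its own Affymetrix array, from 5 sorted populations, and only the HEC and the non-hemogenic endothelial cells (EC, 7 cells) are used at length. HEC of both sets came from the caudal part of eR1-GFP embryos at embryonic day (E) 10.5 and were sorted as eR1-GFP+, CD31+, Ter119-, CD45- and CD41-. The EC came from the same stage, tissue and genotype, with the same surface gate but without GFP. The eR1-GFP reporter places GFP under a Runx1 enhancer, so the HEC gate reports the activity of that enhancer and not Runx1 RNA. Expression is given as the deposited log2 value, which lay near 2.3 where no signal was found, and a value over 5 was called above background.

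Blood stem cells arise in the embryo from hemogenic endothelium, best known in the ventral wall of the dorsal aorta, an artery. Arterial and venous fates part early in endothelium: Notch signalling and its Hey targets maintain arterial genes, while the nuclear receptor COUP-TFII, made by Nr2f2, holds Notch signalling down in veins. Venous endothelium carries EphB4, the receptor for arterial ephrin-B2, together with Nrp2 and Flt4, which receive VEGF-C and are kept by lymphatic endothelium, and Aplnr, the apelin receptor. Lyve1, a hyaluronan receptor, marks lymphatic and some embryonic endothelium and also some macrophages.

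The venous score was 9.47 in cell 6, 9.08 in cell 3 and 6.63 in cell 7. It was 3.99 in cell 5, 3.56 in cell 1, 3.53 in cell 4 and 2.41 in cell 2, so 2.64 log2 units parted the lowest high-score from the highest low-score cell. The same 3 cells ranked highest with Nr2f2, Nrp2, Flt4 and Aplnr alone and with each gene scaled by its spread. They also did with the mean of all probe sets of a gene and after either change of array scaling. With the mean of all probe sets, the difference fell from 5.64 to 0.996 for Nr2f2 and from 8.72 to 2.81 for Nrp2. The cells were chosen by the values of the score genes, which are given as a description.

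The 6 genes did not come on together in any single cell. Nrp2 was the one gene above background in all 3 high-score HEC and in no low-score HEC, with values of 9.94 in cell 6, 12.80 in cell 3 and 10.45 in cell 7 against 2.34, 2.32, 2.35 and 2.37 in cells 1, 2, 4 and 5. Nr2f2 stood at 11.78 and 9.82 in cells 6 and 3, against values of 2.32 to 2.35 in the low-score cells, and was at 2.32, without signal, in cell 7. Aplnr followed the same 2 cells, with 13.17 in cell 6, 14.72 in cell 3 and 2.32 in cell 7, against 2.32 to 2.35 in low-score HEC. Cell 7 thus lacked both Nr2f2 and Aplnr, and it alone held Lyve1, at 11.31 against no more than 2.37 in the other 6 HEC. Flt4 overlapped between the sets: it was 11.99, 12.50 and 8.15 in cells 6, 3 and 7, against 3.64, 2.39, 9.39 and 12.05 in cells 1, 2, 4 and 5. Ephb4 overlapped too, at 7.62, 2.31 and 5.24 in high-score HEC, against 8.38, 2.78, 2.35 and 2.52 in low-score HEC. Among the score genes, Nr2f2 and Aplnr were thus on in cells 6 and 3 but not in cell 7. The place of cell 7 in the set rested on Nrp2, Flt4, Lyve1 and a low Ephb4 signal. All these genes chose the cells, so they cannot bear out the label venous.

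**Figure D1:**
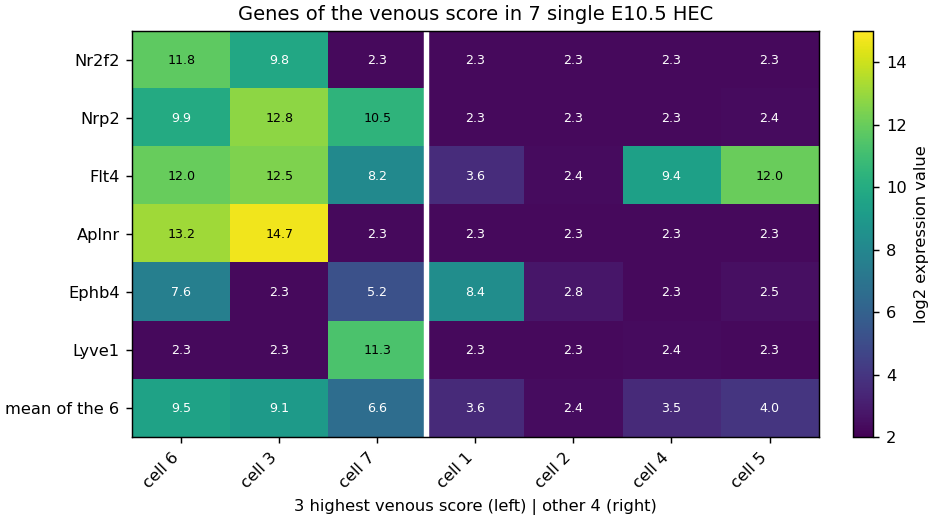
Log2 expression values of the 6 genes of the venous score (rows) and their mean in each of the 7 E10.5 HEC (columns), with the 3 high-score cells left of the white line and the low-score cells right of it. Nrp2 is above background in every high-score cell and in no low-score cell, while Nr2f2 and Aplnr are at 2.3 in cell 7.

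Outside HEC, the same genes were common in the EC. Aplnr was above background in 6 of 7 EC, Flt4 in 6, Nrp2 in 5, Ephb4 in 4 and Nr2f2 in 2, while Lyve1 was in none. The EC score ran up to 9.46, so cell 6 stood at the top of the range of both populations and cell 3 inside the EC range. In E10.5 cluster cells, blood cells attached to the aortic wall, Nr2f2 and Aplnr were above background in 0 of 28 cells, which by the exact 95% binomial interval allows up to 12.3%.

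Before the other genes are described, 3 facts about the arrays and the cells have to be set beside them. More probe sets were above background in high-score HEC (7858, 9020 and 7946 in cells 6, 3 and 7) than in low-score HEC (7031, 7793, 6630 and 7437 in cells 1, 2, 4 and 5), and the median log2 value of those probe sets was higher as well (11.26, 11.62 and 10.20 against 9.11, 9.92, 9.34 and 10.19), with no overlap in either measure. Over the 10695 genes above background in at least 3 of the 84 cells, called measured genes, the median difference was 0.42 log2 units; it was -0.00 after quantile normalization, which gives every array the same distribution, and -0.97 after a shift that gives every array the same median above background. The part of this signal level in any single difference was not tested. Xist, the RNA of the inactive X chromosome, was 11.56, 12 and 9.74 in high-score HEC against 2.34, 2.33, 11.32 and 2.33 in low-score HEC, so all 3 high-score cells and 1 of the 4 others carried it. Eif2s3y, a Y-linked gene, was at background in the 3 high-score cells and at 8.33 and 9.36 in low-score cells 1 and 2. The part of sex in the differences between the sets was not tested. No embryo is named for any cell, so the 7 HEC count as 1 sample and no test between the sets was made; what follows is description. The number of arrays limits its precision: for a gene found in 0 of 3 or 0 of 4 cells, an exact 95% binomial interval reaches 70.8% or 60.2%, and it covers counting error only, as if the cells were independent draws.

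Across the measured genes, the mean of high-score HEC was at least 1 log2 unit above that of low-score HEC for 4424 genes (41.4%) and at least 1 unit below it for 1850 (17.3%). After quantile normalization these shares were 25.3% higher and 26.3% lower. A stricter call asked that the sets differ by 1 unit, that no cell of one set overlap the other and that every cell of the higher set be above background. It was met by 543 genes higher in high-score HEC (5.08%) and by 23 lower (0.215%), against 160 (1.5%) and 182 (1.7%) after quantile normalization. Of the 543 genes, 151 met it also after quantile normalization, and of the 23 genes, 22 did. The high-score cells did not stand closer to each other than to the rest over all measured genes: the correlation across the 10695 genes, which are not independent, ran from 0.479 to 0.535 within the high-score set, from 0.497 to 0.552 within the low-score set and from 0.470 to 0.548 between them. Among 3271 measured genes without signal in any low-score HEC, 59 were on in all 3 high-score cells, 109 in cells 6 and 3 alone, 93 in cells 3 and 7 alone and 62 in cells 6 and 7 alone, while 332, 254 and 225 were on only in cell 3, only in cell 7 and only in cell 6. A gene on in all 3 counts as measured through these cells alone. Genes on in fewer of them needed signal in cells outside HEC, so the counts passed unequal filters.

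Arterial genes differed more among the 3 high-score cells than between the sets. Of 20 arterial genes, all measured, cells 6, 3 and 7 had 10, 5 and 18 above background, against 15, 14, 16 and 17 in cells 1, 2, 4 and 5 and between 1 and 8 in the EC. The mean log2 value over the 20 genes was 7.05, 5.05 and 10.31 in high-score HEC, against 9.63, 8.25, 9.29 and 10.18 in low-score HEC and 2.72 to 5.39 in EC. Cell 3 thus lay within the EC range, cell 6 between the EC and the low-score HEC, and cell 7 above every low-score HEC. Compared as sets, 2 of the 20 genes were at least 1 unit higher and 10 lower in high-score HEC, where 41.4% and 17.3% of all genes were, with a median difference of -1.11 against 0.42 over all genes. No arterial gene met the stricter call. With values below background set to 5, the median was -0.99, and with the 2 highest cells against the other 5 it was -3.48.

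**Figure D2:**
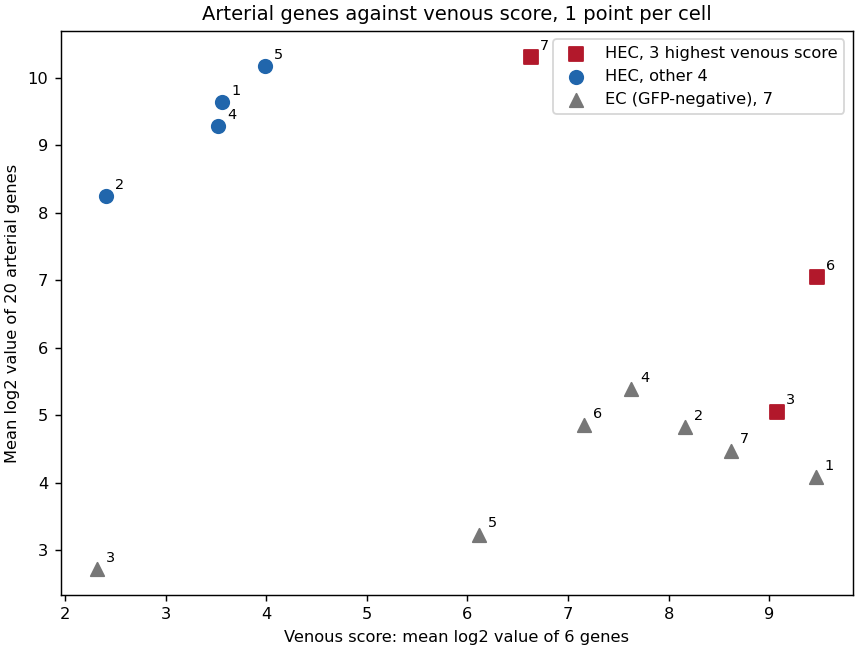
Each point is 1 cell, with the venous score (mean log2 value of 6 genes) on the horizontal axis and the mean log2 value of 20 arterial genes on the vertical axis. High-score HEC are red squares, low-score HEC blue circles and EC grey triangles; cell 7 joins a score of 6.63 with an arterial mean of 10.31, while cell 3 sits among the EC at 5.05.

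Ligands and receptors of the arterial programme split along these lines. Efnb2, the arterial ephrin that binds EphB4, was on in every HEC, at 12.46, 12.42 and 12.20 in high-score cells and 10.98, 11.75, 12.23 and 12.85 in low-score cells. Notch1 was likewise on throughout, at 12.11, 11.95 and 11.25 against 13.23, 11.39, 12.30 and 13.04. These genes did not part the sets. Dll4, the Notch ligand of arterial and sprouting endothelium, was 11.07, 2.31 and 9.17 in high-score HEC and between 6.78 and 7.71 in low-score HEC, so cells 6 and 7 stood above every low-score cell and cell 3 had none. Jag1, a second arterial ligand, was at 2.33 and 2.31 in cells 6 and 3 and at 12.76 in cell 7, against 14.21, 12.80, 11.75 and 2.34 in cells 1, 2, 4 and 5. Unc5b, a netrin receptor of arteries, was 2.58, 2.77 and 9.14 in high-score HEC against 8.25, 10.39, 8.78 and 12.06 in low-score HEC. It was above background in every low-score HEC but in cell 7 alone of the high-score cells. Notch2 ran the other way, at 11.80, 8.39 and 2.32 in cells 6, 3 and 7 against no more than 2.82 in low-score HEC.

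Arterial transcription factors and junction genes described next were at background in cell 3, and some of them in other cells too. Gja4, a connexin of arterial gap junctions, was 12.12, 2.31 and 13.72 in cells 6, 3 and 7, against 14.61, 11.70, 12.72 and 14.21 in low-score HEC. Sox17, an arterial factor also needed by hemogenic endothelium, was 11.42, 2.31 and 10.24 against 13.75, 2.34, 13.49 and 12.62. Hey1, a Notch target, was 2.33, 2.31 and 10.52 against 12.30, 4.64, 11.78 and 13.77. Cell 3 had none of these 3 genes, cell 6 had Gja4 and Sox17, and cell 7 had them all. Tmem100, which acts downstream of BMP signalling in arteries, was absent from cells 6 and 3 at 2.33 and 2.34 and was 10.69 in cell 7, against 14.32, 11.48, 10.62 and 10.66 in low-score HEC. Mecom and Vegfc followed Gja4. Mecom, a zinc-finger factor of blood stem cells, was 12.40, 2.31 and 13.62 against 14.31, 13.05, 12.67 and 13.65. Vegfc, a ligand of Flt4 and Nrp2, was 12.40, 2.34 and 12.91 against 13.33, 13.24, 11.21 and 14.18. In Gja4, Mecom and Vegfc, cell 3 stood apart from the other 6 HEC.

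Of 6 Notch target genes listed, 4 were measured, and 1 was higher and 2 were lower in high-score HEC, where 41.4% and 17.3% of all genes were. The median difference was -0.99. Hes1, a repressor that many signals besides Notch induce, was higher, at 12.17, 8.17 and 9.14 in cells 6, 3 and 7 against 2.34, 2.32, 2.35 and 8.69. Hey2 did not differ in its mean, at 10.55, 2.71 and 12.30 against 11.28, 2.33, 8.23 and 12.18: it was absent from 1 cell of each set. Nrarp, a feedback inhibitor of Notch, was 11.82, 2.31 and 10.71 against 8.22, 10.37, 10.84 and 11.67. With 4 genes, the median depended on single cells and ran from -2.54 to 1.95 when 1 HEC at a time was left out.
The 250 bases before the annotated start of Hey2 (RefSeq, GRCm38.p6, chr10:30842784-30843033, minus strand) are shown because Hey2 is a Notch target that was on and off within both sets. The capitals mark the reverse complement of TGGGAA, the core bound by the Notch partner RBPJ, which begins 207 bases upstream.
Hey2: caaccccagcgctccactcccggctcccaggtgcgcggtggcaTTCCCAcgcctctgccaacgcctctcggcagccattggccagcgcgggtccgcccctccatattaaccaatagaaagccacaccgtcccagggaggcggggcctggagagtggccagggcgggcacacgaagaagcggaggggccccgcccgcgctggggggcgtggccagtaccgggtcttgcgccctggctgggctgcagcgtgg
Both strands were searched, and 21.6% of the 32851 promoter windows of the same length before their starts hold TGGGAA. Of the 3 listed targets with a promoter in the table, 2 hold it. The motif was chosen after the expression values were seen, and a match is no evidence of binding.

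Genes of veins and lymphatics outside the score gave no common pattern. Of 16 such genes, 11 were measured, and 6 were higher and 2 lower in high-score HEC, where 41.4% and 17.3% of all genes were. The median difference of 1.11 became -0.28 after the equal-median shift, 0.15 after quantile normalization and -0.02 without cell 6. Stab1, a scavenger receptor of sinusoidal and lymphatic endothelium, was the one member to meet the stricter call, at 11.45, 12.72 and 11.36 in high-score HEC against 2.54, 8.69, 8.80 and 7.07 in low-score HEC. Its difference was 5.07 log2 units, or 4.45 with values below background set to 5. Vwf, von Willebrand factor, pointed the other way, at 2.33, 2.31 and 13.84 in cells 6, 3 and 7 against 12.66, 13.20, 14.13 and 14.40. Foxc2, a forkhead factor of arteries and of lymphatic valves, was on in cell 7 alone of the high-score set, at 11.38, and in 3 of the 4 low-score cells, at 11.78, 11.26, 2.35 and 11.70. Cells 6 and 3 thus lacked both genes. Prox1, the factor that sets lymphatic fate, and Pdpn were at background in all 7 HEC, with no value over 2.70.

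Cell 6 carried a group of genes found in almost no other HEC. Stab2, a hyaluronan-clearing receptor of sinusoidal endothelium, was 13.11, and Mrc1, the mannose receptor, was 13.46. Maf, a transcription factor of liver sinusoidal and lymphatic endothelium and of macrophages, was 14.06. These genes were at no more than 2.39 in the other 6 HEC. Stab2 and Maf were each above background in 1 of 7 EC, EC cell 1 for both, and Mrc1 in 0. None of the 12 macrophage genes listed was above background in cell 6, with C1qb, Cd14 and Csf1r at 2.33, 2.33 and 4.83, so the defining genes of macrophages were not found beside Mrc1 and Maf. Of 8 endocardial genes, 5 were above background in cell 6, against 2 in cell 3, 2 in cell 7, 3 in each low-score HEC and at most 1 in each EC. Gata4, a factor of heart and other mesoderm, was 12.09 in cell 6 and no more than 2.35 elsewhere in HEC; Hand2 and Tbx20, also cardiac mesoderm factors, were 9.76 and 9.98 there and no more than 2.41 in the others. Npr3, a natriuretic peptide receptor of the endocardium, was 11.32 in cell 6 and 9.54 in low-score cell 4. Of these 4 genes none counts as measured, since each was above background in fewer than 3 cells of the series. All 27 pan-endothelial genes were on in cell 6. Of 16 mesenchymal genes, cell 6 had 1, Twist1, and cell 3 had 2, Abcc9 at 12.83 and Col3a1 at 11.46. Abcc9 was also above background in EC cells 1, 2, 5, 6 and 7. Mmrn1, a secreted glycoprotein of lymphatic endothelium and platelets, was 11.99 in cell 3 and 9.06 in low-score cell 5. It was above background in 6 of 7 EC. The labelled tissue is the caudal part, and the place of any cell within it is not given.

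Endothelial identity was kept in every HEC. Of 27 pan-endothelial genes, cells 6, 3 and 7 had 27, 23 and 27 above background, against 25, 23, 26 and 25 in low-score HEC. As sets, 9 were at least 1 unit higher in high-score HEC and 3 lower, where 41.4% and 17.3% of all genes were. The median difference of 0.46 was close to the 0.42 of all genes. After quantile normalization it was -0.16. Cdh5, VE-cadherin, was 12.54, 13.37 and 13.95 against 13.33, 12.24, 12.33 and 13.82. Plvap, which forms the diaphragms of endothelial fenestrae and is abundant in veins, was the one member to meet the stricter call, at 12.50, 13.16 and 13.15 against 11.76, 11.11, 8.43 and 11.50. Kdr, the main VEGF receptor, was 12.23, 11.81 and 10.96 against 8.41 to 11.02, where cell 4 just overlapped cell 7. Tek, the angiopoietin receptor, was 13.97, 13.37 and 13.91 against 13.49, 10.56, 9.25 and 11.81. Ptprb, a phosphatase that restrains Tek, was 11.87, 2.31 and 11.46 against 11.47 to 12.02, and so was missing from cell 3 alone.

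Among the blood genes listed here, 1 met the stricter call. Runx1 was at background in all 7 HEC on the probe set used, at 3.34, 3.05 and 3.06 in high-score cells and 3.08, 3.07, 2.73 and 3.08 in low-score cells. Of 18 blood transcription factors, 4 were higher and 2 lower in high-score HEC, with a median difference of 0.08, and 8 were off in every HEC. Gata2, which hemogenic endothelium requires to make blood, was 3.02, 11.77 and 10.03 in cells 6, 3 and 7 against 13.05, 11.98, 11.60 and 11.65, so cell 6 alone lacked it. Zfpm1, the Gata partner Fog1, met the stricter call at 9.77, 5.13 and 7.19 against 4.62 to 4.64, though the value of cell 3 was just above background. Cbfb, the partner of the Runx proteins, was 12.22, 12.89 and 11.50 against 8.90, 9.45, 11.65 and 10.13, where cell 4 overlapped. Among 22 measured genes associated with blood stem cells, 5 were higher and 6 lower. Kit, the receptor for stem cell factor, was 2.47, 11.59 and 10.68 against 2.48, 9.84, 3.89 and 3.88: it was on in 2 of 3 high-score and 1 of 4 low-score cells. Of 19 pan-hematopoietic genes, 2 were higher and 5 lower. Over all measured genes 41.4% were higher and 17.3% lower. After quantile normalization the counts higher and lower were 2 and 5 of 18, 3 and 10 of 22, and 1 and 7 of 19. The shares of all measured genes were then 25.3% and 26.3%. Cd44, an adhesion receptor of emerging blood cells, was 2.33, 2.62 and 12.66 in cells 6, 3 and 7 against 9.42, 12.36, 7.55 and 12.43, and so was off in the same 2 high-score cells that held Nr2f2.

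Immediate-early and stress genes, which tissue dissociation is known to induce, differed widely between single cells. Of 16 such genes, all measured, 13 were higher and 2 lower in high-score HEC, where 41.4% and 17.3% of all genes were. The median difference was 3.44, or 2.20 after quantile normalization and 2.56 with values below background set to 5. The difference was not shared by the 3 cells. Cells 6, 3 and 7 had 14, 12 and 6 of the 16 above background, against 7, 7, 3 and 8 in cells 1, 2, 4 and 5, so that cell 7 lay within the low-score range. Fos, part of the AP-1 factor, was 14.30 and 12.35 in cells 6 and 3 and 2.35 in cell 7, against 2.36 to 2.53 in low-score HEC. Egr1, an early response factor, was 13.53, 12.81 and 2.33 against no more than 2.35. Hspa1a, the inducible heat-shock protein Hsp70, was 14.22, 14.24 and 2.32 against no more than 2.37. All 3 genes were thus on in the same 2 cells of 7; the part of dissociation in the differences between sets was not tested. Socs3, a feedback inhibitor of cytokine signalling, was 14.82, 10.19 and 10.11 against 12.14 in cell 1 and no more than 2.35 in cells 2, 4 and 5. Btg2, an antiproliferative early gene, was the exception that met the stricter call for lower values, at 6.61, 2.31 and 2.32 against 8.12, 7.24, 8.67 and 8.27. In the EC, 1 to 11 of the 16 genes were above background in a cell. EC cells 1, 7 and 2, with the 3 highest EC venous scores, had 11, 6 and 2. EC cell 3, with the lowest score, had 10, and EC cells 4, 5 and 6 had 1 each.
The promoters of 3 of these genes (RefSeq, GRCm38.p6, 250 bases before the annotated start) are shown since they carry binding motifs of 3 different signal pathways. In Hspa1a (chr17:34972157-34972406, minus strand) the capitals mark the heat-shock element GAANNTTC, which begins 104 bases upstream and occurs in 6.69% of promoter windows.
Hspa1a: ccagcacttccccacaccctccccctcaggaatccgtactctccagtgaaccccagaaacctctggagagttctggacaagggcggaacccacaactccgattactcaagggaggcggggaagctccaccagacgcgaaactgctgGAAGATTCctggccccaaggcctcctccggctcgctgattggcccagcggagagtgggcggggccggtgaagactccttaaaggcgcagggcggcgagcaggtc
In Fos (chr12:85473640-85473889, plus strand) the capitals mark 2 matches to TGACG, the core of the cyclic AMP response element, which begin 129 and 66 bases upstream; 17.8% of promoter windows hold it on either strand.
Fos: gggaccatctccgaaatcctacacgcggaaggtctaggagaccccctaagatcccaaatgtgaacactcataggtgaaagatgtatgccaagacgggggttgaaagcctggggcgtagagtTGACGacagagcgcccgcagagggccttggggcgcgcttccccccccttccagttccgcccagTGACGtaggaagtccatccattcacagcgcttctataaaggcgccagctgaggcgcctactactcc
In Socs3 (chr11:117969367-117969616, minus strand) the capitals mark TTCNNNGAA, the site of STAT factors, which begins 154 bases upstream and occurs in 7.02% of promoter windows.
Socs3: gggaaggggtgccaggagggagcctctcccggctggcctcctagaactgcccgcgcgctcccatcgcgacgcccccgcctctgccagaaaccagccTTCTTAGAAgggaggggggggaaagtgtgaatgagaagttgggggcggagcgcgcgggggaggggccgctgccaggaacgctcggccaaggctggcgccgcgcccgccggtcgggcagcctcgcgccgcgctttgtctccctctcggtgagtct
Of the 14 listed stress genes with a promoter in the table, 3 hold the heat-shock element, 7 hold TGACG and 2 hold the STAT site. The motifs were chosen after the expression values were seen. Hspa1a and Hspa1b are near-identical copies, so their probe sets may read both.

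**Figure D3:**
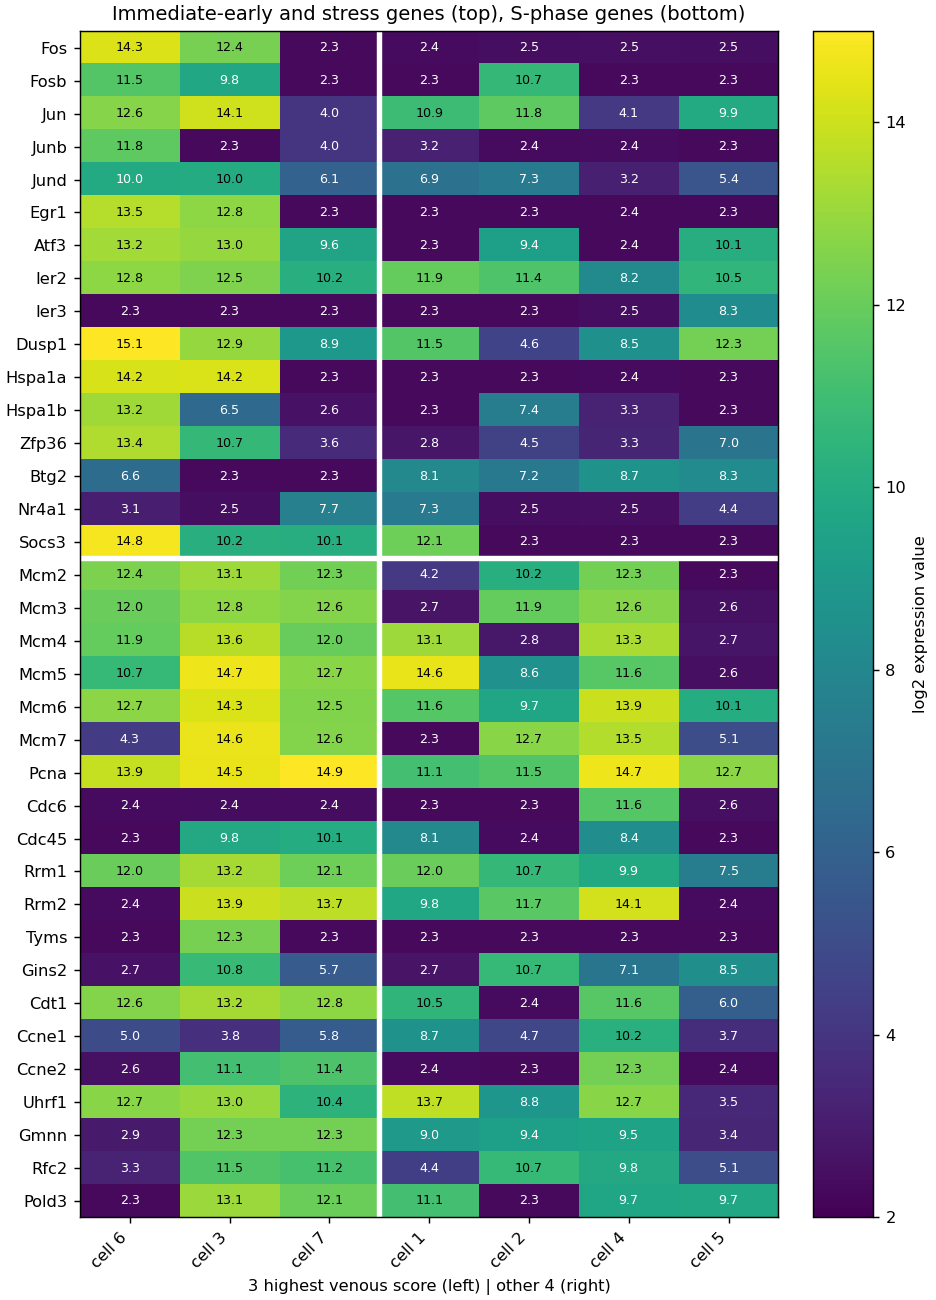
Log2 expression values of 16 immediate-early and stress genes (upper block) and 20 S-phase genes (lower block) in the 7 E10.5 HEC, high-score cells left of the white line. Fos, Egr1 and Hspa1a are high in cells 6 and 3 alone, and cells 3, 7 and 4 have 18, 18 and 19 of the S-phase genes above background.

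Genes of DNA replication spread widely within each set. Of 20 S-phase genes, 15 were higher and 2 lower in high-score HEC, where 41.4% and 17.3% of all genes were, with a median difference of 2.09, or 1.54 after quantile normalization. Cells 6, 3 and 7 had 9, 18 and 18 above background, against 12, 12, 19 and 8 in cells 1, 2, 4 and 5. Cdt1, which licenses replication origins, met the stricter call at 12.58, 13.23 and 12.78 against 10.49, 2.37, 11.61 and 5.96. Pcna, the sliding clamp, was 13.87, 14.55 and 14.95 against 11.13, 11.49, 14.67 and 12.73, where low-score cell 4 overlapped. Of 19 genes of G2 and mitosis, 6 were higher and 5 lower, again beside 41.4% and 17.3% of all genes. Cells 6, 3 and 7 had 3, 16 and 12 of these 19 genes on, against 14, 19, 11 and 2. Mki67, a marker of cycling cells, was 2.80, 14.15 and 11.53 against 13.08, 13.32, 7.24 and 2.80. In these genes cell 6 resembled low-score cell 5, and each set held cells with many and cells with few cycle genes on.

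Imprinted genes, of which only the copy from 1 parent is active, gave the most members that met the stricter call. Of 11 measured members of the list, 5 were higher and none lower, where 41.4% and 17.3% of all genes were, and 4 met the stricter call, against 5.08% of all genes. The median difference was 0.95, with 0.72 after quantile normalization and -0.44 after the equal-median shift. Peg3, a zinc-finger factor, was 12.42, 14.63 and 14.96 in cells 6, 3 and 7 against 6.77, 2.34, 2.37 and 10.79 in low-score HEC. Meg3, a long noncoding RNA expressed from the maternal copy, was between 13 and 13.91 in high-score HEC, against 8.31 and 8.92 in cells 1 and 4 and background in cells 2 and 5. Both were above background in all 3 high-score cells and in 2 of the 4 others, with differences of 8.44 and 7.90 log2 units. With the mean of its probe sets, the difference of Peg3 was 3.48. Igf2r, which clears Igf2, was 12.19, 11.48 and 10.19 against 2.34, 9.60, 8.81 and 6.98, and Ndn, a growth suppressor, was 12.58, 11.37 and 11.64 against 9.35, 11.30, 9.61 and 6.37. For Ndn, high-score cell 3 lay just above low-score cell 2. Igf2, the growth factor itself, was at 14.35, 15.05 and 14.96 against 14.78, 14.92, 14.55 and 14.84, and did not differ. In EC, Peg3 was on in 7 of 7 cells with a mean of 11.11 ± 2.79 (SD, n = 7).

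The remaining lists are read against all measured genes, of which 41.4% were higher and 17.3% lower. Of 8 flow-responsive genes, 5 were higher and 1 lower. Klf2, the shear-stress factor, was 12.45, 12.87 and 11.39 against 2.53, 10.97, 7.58 and 12.49, where low-score cell 5 overlapped. Of 16 BMP and TGF-beta genes, 7 were higher and 2 lower, and none met the stricter call. Of 17 genes of basement membrane and matrix, 5 were higher and 1 lower; Lamc1, a laminin chain, was 10.80, 11.15 and 9.91 against 8.62, 7.93, 8.94 and 9.07, and Nid1, which links laminin to collagen, was 13.55, 14.01 and 13.19 against 9.01, 12.08, 11.15 and 12.99. Both met the stricter call. The median difference was 0.16 over 10 housekeeping genes and 0.22 over 16 ribosomal protein genes.

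**Figure D4:**
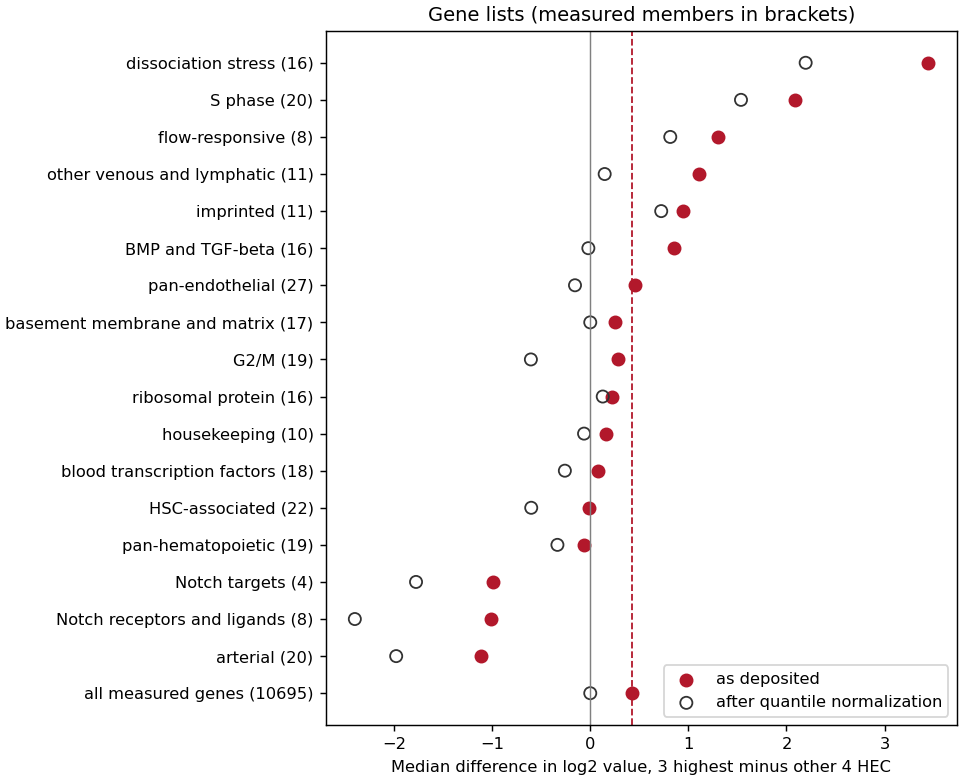
Median difference in log2 value, high-score minus low-score HEC, for 17 gene lists (measured members in brackets) and for all measured genes, as deposited (filled) and after quantile normalization (open). The dashed line marks the median of all measured genes, 0.42; as deposited, stress genes lie at 3.44, S-phase genes at 2.09 and arterial genes at -1.11.

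Among all genes outside the score, the 12 with the largest positive difference that met the stricter call were led by Dvl1, which relays Wnt signals. Dvl1 was 11.23, 12.16 and 12.31 in cells 6, 3 and 7 against 2.34, 2.33, 2.35 and 2.34 in low-score HEC, a difference of 9.56, and of at least 6.90 with values below background set to 5. Slc38a4, an amino acid transporter and an imprinted gene, was 12.02, 13.50 and 11.11 against 5.52, 2.87, 2.50 and 2.34. Baz1a, a subunit of a chromatin remodeller, was 11.02, 11.64 and 10.47 against 2.32 to 2.35. As the call requires, these genes were on in every high-score cell. Apart from Slc38a4 in cell 1, they were on in no low-score cell. In EC, Dvl1 and Baz1a were on in 4 of 7 cells and Slc38a4 in 5. Gnai1, an inhibitory G-protein subunit, was 12.37, 13.26 and 7.12 against no more than 2.35, and Nfx1, a zinc-finger repressor, was 11.93, 13.74 and 7.73 against no more than 3.56. For both, cell 7 was well below cells 6 and 3, and 5 of 7 EC were above background. Mtf1, the metal-responsive transcription factor, was 11.08, 10.69 and 10.76 against 2.37 to 2.52 and was above background in 0 of 7 EC. Armc1, an armadillo-repeat protein, was 11.48, 11.75 and 10.21 against no more than 3.86, also with 0 of 7 EC. Sh3rf1, a scaffold of JNK signalling, was 10.21, 11.05 and 10.06 against no more than 2.35, with 1 of 7 EC. The remaining members were Bmt2, Peg3, Flvcr1, a heme and choline transporter, and Cnot2, a subunit of the CCR4-NOT deadenylase, with differences of 8.13 to 8.66. Bmt2 and Flvcr1 were on in 2 of 7 EC, Cnot2 in 3 and Peg3 in 7. Of the 12 genes, 10 were off in all 4 low-score HEC, which taking the largest differences favours.

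The 12 genes with the largest negative difference that met the stricter call were on in all 4 low-score HEC, as the call requires. They were mostly off in the high-score set, which taking the largest differences favours. Dip2a was 2.34, 2.65 and 2.35 in cells 6, 3 and 7 against 11.35, 11.43, 10.86 and 10.77, a difference of -8.65, or at least 6.10 lower with values below background set to 5. Dock9, an activator of the GTPase Cdc42, was 2.33, 2.32 and 2.32 against 8.58, 12.19, 10.39 and 10.26. Sema7a, a membrane-anchored semaphorin, was 2.33, 2.31 and 2.33 against 9.11, 7.92, 9.19 and 11.28 and was above background in 0 of 7 EC. In this gene the low-score HEC stood apart from both the high-score HEC and the EC. Serpinf1, the secreted factor PEDF that restrains vessel growth, was 2.53, 2.35 and 11.26 against 13.53, 11.68, 11.30 and 13.01, so that cell 7 lay just below the lowest low-score cell. Reck, a membrane inhibitor of metalloproteinases, was 2.34, 6.98 and 2.32 against 10.20, 9.48, 8.75 and 10.30. Map1lc3a, an autophagosome protein, was 2.51, 2.49 and 2.42 against 8.17, 9.64, 8.38 and 11.56. Mbd1, which binds methylated DNA, was at 2.32 to 3.14 against 10.96, 8.76, 9.61 and 7.13. Further members were Sbf2, Mien1, Igdcc3 and AU021092, with differences of -7.19 to -5.14. Unlike Sema7a, Dock9 was on in 5 of 7 EC, and Dip2a, Sbf2, Map1lc3a and Mbd1 were on in 3. Serpinf1, Mien1 and Igdcc3 were on in 2 EC, and Reck and AU021092 in 1. All 24 genes met the stricter call also after quantile normalization and after the equal-median shift, but with the mean of all probe sets of a gene many differences shrank. Mbd1 was then -0.17, below the size of a call, Mtf1 1.16, Armc1 1.22 and Sh3rf1 1.77.

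**Figure D5:**
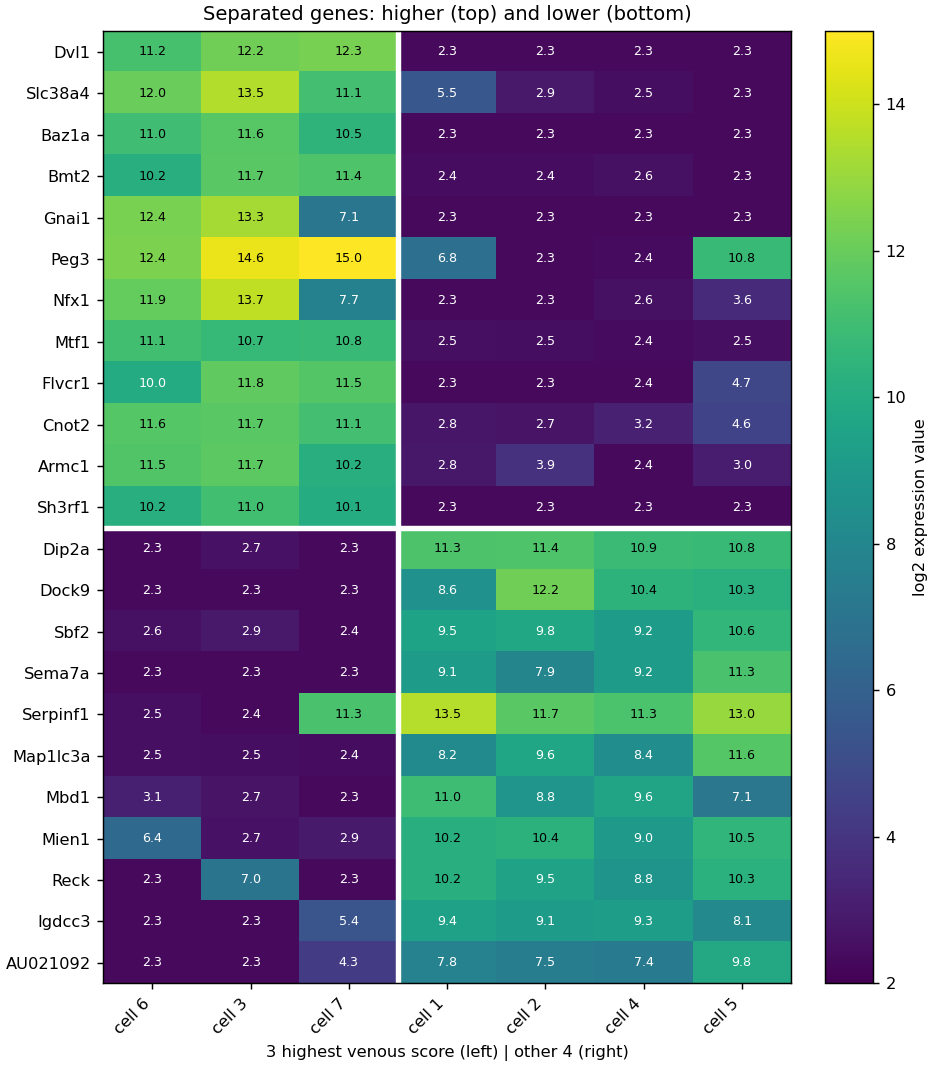
Log2 expression values in the 7 E10.5 HEC of the 12 genes with the largest positive (upper block) and 11 of the 12 with the largest negative difference (lower block) among genes that met the stricter call, high-score cells left of the white line. In the lower block Serpinf1 stays at 11.3 in cell 7, just below the lowest low-score cell.

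The EC, which the score of the HEC did not use, gave a further look at the same genes. When the 7 EC were ranked by the same score, the 3 highest (cells 1, 7 and 2) had scores of 9.46, 8.62 and 8.16, against 7.63, 7.16, 6.12 and 2.32 in cells 4, 6, 5 and 3. EC cell 3 had 2 of the 27 pan-endothelial genes above background, where the other 6 EC had 17 to 25, and values are given with and without it. Of the 543 genes that met the stricter call in high-score HEC, 41.3% were at least 1 unit higher in the 3 highest EC, against 27.5% of all measured genes, and 22.5% were lower, against 24.1%. Without EC cell 3 the shares were 50.8% against 32.7% and 15.8% against 16.1%. The 543 genes had to be on in all 3 high-score HEC, while 2137 of the 10695 measured genes were off in all 7 HEC. The shares thus compare unlike sets of genes. The median log2 value of probe sets above background was 10.15, 10.43 and 8.44 in EC cells 1, 7 and 2. It was 8.88, 9.07, 8.77 and 9.04 in EC cells 4, 6, 5 and 3. The part of this signal level in the shares was not tested. Of the 23 genes lower in high-score HEC, 2 were lower in the 3 highest EC and 11 were higher; without EC cell 3, 3 were lower and 15 higher. Igdcc3 was 5.91 log2 units higher in the 3 highest EC with cell 3 and 5.89 without it, opposite to its direction in HEC. This rested on few cells, since Igdcc3 was above background in 2 of 7 EC. Peg3 was 2.32 higher with EC cell 3 and 3.17 without it. The median difference between the EC sets was 1.004 with cell 3 and 2.22 without it for the 16 stress genes, 0.96 and 2.09 for the 20 S-phase genes, and 0.092 and 0.0031 for the 20 arterial genes, against -0.0054 and 0.00085 over all measured genes. It was 3.77 and 2.69 for the 27 pan-endothelial genes, a difference in endothelial signal that moves with the score in EC and whose part in these shares was not tested.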

How the data were processed

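RNA of single sorted cells was amplified and hybridised to Affymetrix mouse arrays. The deposited log2 expression values were made by the authors with GCRMA in affy, per the submitters' processing notes; versions are not given in the sources used here. Of 45101 probe sets, 34958 had 1 gene symbol in the platform annotation and were used, and each of the 18194 genes was read on its brightest probe set over the 5 populations weighted equally. A value over 5 was called above background, and 10695 genes above it in at least 3 cells were measured. Fetal liver HSC arrays 20 and 21 correlated at 0.991 and were averaged, leaving 84 cells from 85 arrays. The control probe set Phe 3' stood at 9.50 in 5 HEC and at 3.62 and 3.46 in HEC cells 7 and 5, so the arrays may not share 1 scale.

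Differences are means of high-score minus low-score HEC, with no test, in Python 3.11.15 with numpy 2.4.6 and pandas 2.3.3. Genes named are those of the score, the 12 with the largest difference each way that met the stricter call, and members of 36 gene lists; genes of a list and the cells themselves were chosen with earlier results of these data known. One item is not reported here. The calculation was tested on simulated data. Alternatives changed the scaling, the background (4 or 6), the size of call (2 log2 units), the probe-set rule and the cells used.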

Additional observations from a re-analysis of the deposited data

Results flagged for a closer look

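Among 48 sets of values examined over the 7 HEC, 2 had 1 cell far from the other 6; chance marks about 1 in 20 such sets. The mean log2 value of the other venous and lymphatic genes was 8.35 in cell 6, far above the others, as Stab2, Mrc1 and Maf were on in that cell alone. Lyve1 was 11.31 in cell 7 and at background in the other 6 HEC.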

How the results depend on the processing

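The same 3 cells had the highest score under each change of the score; the gap to the fourth was 1.04 with 4 markers, 0.71 with scaled markers and 1.23 with the mean of all probe sets. The counts of genes depended on array scaling. After the equal-median shift 2573 genes were higher and 5293 lower, and 197 and 193 met the stricter call; after quantile normalization these counts were 2704, 2811, 160 and 182, and 129 genes met the stricter call for higher values under all 3 scalings, an alternative chosen after seeing the data. With arrays set so that control probe sets had their shared value, 1875 and 101 genes met it; with the 2 highest cells against the other 5, 1476 and 46. With a size of 2 units, 927 genes were lower. Median differences after the shift were -0.28 for other venous and lymphatic, -0.93 for pan-endothelial, -1.32 for blood transcription factor and -0.44 for imprinted genes. After quantile normalization the venous and pan-endothelial medians were 0.15 and -0.16, and with medians over cells the venous one was -0.013. With the 2 highest cells against 5, the medians were 2.12 for other venous, -3.48 for arterial and 5.69 for stress genes. Without EC cell 3, 50.8% of genes that met the stricter call were higher in the EC split. The causes of these changes were not tested.

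Leaving out each HEC in turn gave 3763 to 4797 genes higher and 1733 to 2495 lower, and 633 to 1642 and 46 to 96 that met the stricter call, which fewer cells make easier to meet; the highest, 1642, came without cell 7, and 1000 without cell 6. Medians then ran from -0.020 to 1.67 for other venous, -2.25 to -0.60 for arterial, 0.30 to 0.73 for pan-endothelial, -2.54 to 1.95 for Notch target, -0.017 to 0.0805 for blood transcription factor, 1.10 to 4.36 for S-phase, 0.83 to 1.36 for imprinted and 1.67 to 5.35 for stress genes. Among the genes named, Ephb4 changed direction under the shift (-0.34) and without cell 6 (-0.23; -0.23 to 2.51 over the cells left out), and Lyve1 without cell 7 (-0.022; -0.022 to 4.48); the other 28 kept theirs under the settings run, though the mean of all probe sets moved 20 of the 30 by more than the spread between cells. No paired analysis was possible because the replicate numbers name single cells and both sets come from 1 group. The number of cells, 3 against 4 with no embryo named, and the unknown scale between arrays limit all differences; values below background have no order.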
